A study of Homo sapiens with 12 samples.

Results

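The SOX genes encode transcription factors that share a DNA-binding domain, the HMG box. Of the 10 SOX genes chosen by symbol, 9 were among the 10976 genes with a deposited value, namely *SOX2*, *SOX3*, *SOX21*, *SOX4*, *SOX11*, *SOX12*, *SOX5*, *SOX6* and *SOX9*. *SOX17* was not analysed here. The values came from cerebral organoids (COs), which are 3-dimensional cultures of neural tissue grown without regional patterning signals, of 3 lines collected on day 12 and day 24. WT was the human embryonic stem cell line H1, and KO#2 and KO#10 were clones of H1 edited at *c-JUN* by CRISPR-Cas9, so each KO line stood for 1 clone. Each line gave 2 libraries per day, which made 2 WT and 4 KO libraries on each day and 12 in all. A library held total RNA of several pooled COs, depleted of ribosomal RNA. The labels give replicate numbers but do not say whether the replicates came from separate cultures, so that *p*-values measure the spread between these libraries, which may be technical.

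SOX proteins bend DNA at short related sites and act with partner factors, and they fall into groups by sequence. The SOXB1 genes (*SOX1*, *SOX2*, *SOX3*) keep neural progenitors undifferentiated, and *SOX2* also belongs to the pluripotency network of stem cells. *SOX21* of group B2 represses genes that SOXB1 factors activate. The SOXC genes (*SOX4*, *SOX11*, *SOX12*) act in progenitors and young neurons, the SOXD genes (*SOX5*, *SOX6*) control the timing of neuronal and glial differentiation, and *SOX9* of group E acts in neural stem cells, the glial lineage, neural crest and cartilage.

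Each gene had 1 whole-number score per library, which the authors had normalized before deposit. The median score was 17 and the highest 5585 in every library, the depth is unknown, and levels of different genes were not ranked because their scaling to gene length is not given. Differences are given as log2 of (score + 1), which understates changes at low scores. A gene was called in a comparison when its adjusted *p* (limma, Benjamini-Hochberg over all tested genes) was under 0.05 and the difference was 2-fold or more. *JUN*, the edited gene, scored higher and not lower in libraries with the KO label. Its mean scores were 16 ± 2.94 (KO, SD, n = 4) against 6 ± 2.83 (WT, SD, n = 2) on day 12, and 34.8 ± 5.06 against 14.0 ± 1.41 on day 24. By limma it was called higher in KO on day 24 (log2 difference 1.25, SE 0.17, adjusted *p* = 0.0184) but not on day 12 (1.33, SE 0.27, adjusted *p* = 0.131). WT and KO below therefore mean the libraries so labelled. The labels name the tissue as embryonic stem cells. The scores of 9 pluripotency markers, summed, were 943 to 1139 in WT and 626 to 676 in KO on day 12, and 520 to 947 in WT and 65 to 96 in KO on day 24. Those of 12 neuron markers were 435 to 519 in WT and 469 to 579 in KO on day 12, and 350 to 520 in WT and 776 to 2406 in KO on day 24. KO#10 replicate 1 of day 24 was the KO library with the lowest neuron sum (776) and the lowest sum of 15 neural progenitor markers (1386, other KO libraries up to 2182), and several SOX genes lay near their WT level in it. Leaving it out had to raise the difference of any gene in which it was the lowest KO library. Fits without it are therefore no independent support.

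*SOX2* was at nearly the same level in KO and WT. On day 12 its scores were 124 and 126 for WT, 146 and 97 for KO#2, and 136 and 98 for KO#10. On day 24 they were 56 and 44 for WT, 48 and 67 for KO#2, and 34 and 73 for KO#10. KO libraries lay on both sides of WT on each day, and all 6 libraries of day 24 lay below all 6 of day 12. The log2 difference between KO and WT was -0.09 on day 12 (95% interval -0.56 to 0.38) and 0.10 on day 24 (95% interval -0.63 to 0.83).

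*SOX3*, the X-linked SOXB1 gene, was higher in KO than in WT. Its scores on day 12 were 11 and 21 for WT, 25 and 49 for KO#2, and 20 and 45 for KO#10. Replicate 2 was roughly 2-fold above replicate 1 in each line, and within each replicate number both KO libraries lay above WT. On day 24 the scores were 18 and 9 for WT, 48 and 52 for KO#2, and 19 and 51 for KO#10, so that every KO library was above both WT libraries, KO#10 replicate 1 by a single unit. The log2 difference was 1.04 on day 12 (SE 0.39, adjusted *p* = 0.378) and 1.56 on day 24 (SE 0.45, adjusted *p* = 0.0581), and neither passed. Over both days it was 1.30 (SE 0.33, adjusted *p* = 0.0200), and *SOX3* was called higher. That call was lost without WT replicate 1 of day 12 (adjusted *p* = 0.0930) or WT replicate 2 of day 24 (adjusted *p* = 0.124). On day 12, where libraries of the same replicate number deviated together, the replicate block brought *SOX3* past the threshold (adjusted *p* = 0.0229). Leaving out KO#10 replicate 1, the lowest KO library of day 24, had to raise the difference, which was then 1.90 and passed (adjusted *p* = 0.00812).

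The SOXB1 pair was then compared within the same libraries. The size of the *SOX3* to *SOX2* difference rests on the unknown scaling between genes, so only how it varied between libraries is described. The log2 difference of *SOX3* minus *SOX2* was -3.38 and -2.53 for WT, -2.50 and -0.97 for KO#2, and -2.71 and -1.11 for KO#10 on day 12. It was -1.58 and -2.17 for WT, 0.00 and -0.36 for KO#2, and -0.81 and -0.51 for KO#10 on day 24. KO lay above WT within each replicate number of day 12 and in all libraries of day 24, KO#10 replicate 1 included. The pair was singled out after its values were seen, and no test is given. *SOX1*, the third SOXB1 gene and not among the 9, had scores of 1 and 4 for WT, 7 and 10 for KO#2, and 5 and 10 for KO#10 on day 12, and of 4 and 1, 11 and 12, and 6 and 12 on day 24. It was called higher in KO on day 24 (log2 difference 1.79, SE 0.46, adjusted *p* = 0.0448), a call lost without any single library of that day other than KO#10 replicate 1. A gene was tested if it scored 10 or more in 2 or more libraries, which *SOX1* did in KO libraries only. Its WT scores were near the floor, and the call is no independent support.

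**Figure D1:**
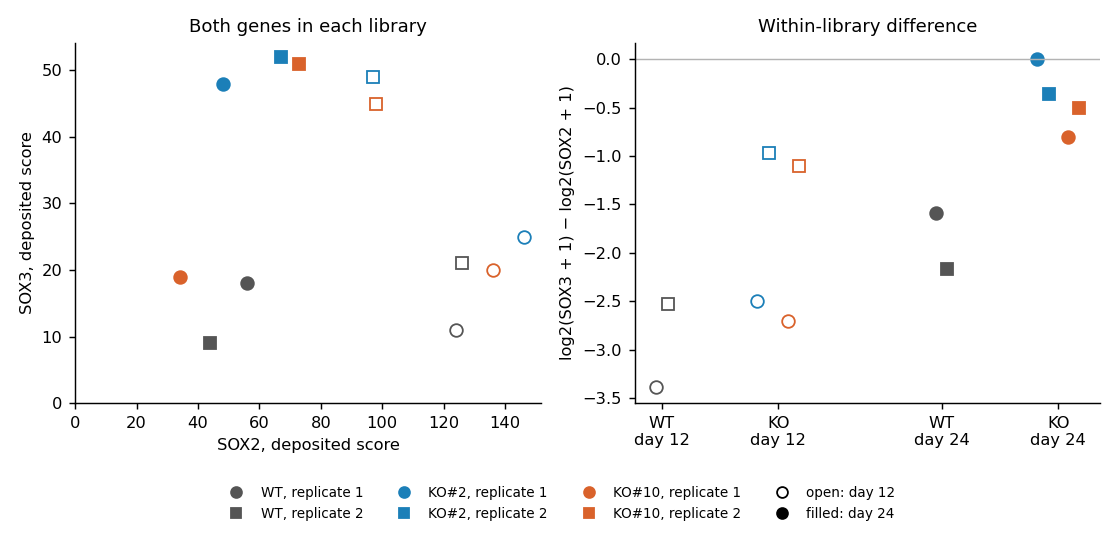
Scores of *SOX3* against *SOX2* in the 12 libraries (left) and the log2 difference of *SOX3* minus *SOX2* within each library by genotype and day (right). Colours mark the line, shapes the replicate number, open symbols day 12 and filled symbols day 24. On day 24 the KO libraries lie between -0.81 and 0.00 and the WT libraries at -1.58 and -2.17.

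c-JUN binds DNA as part of AP-1, at sites of the type TGA(C/G)TCA, or at CRE sites, TGACGTCA. AP-1 sites were searched more loosely as TGANTCA, where N is any base, along with TGACGTCA and, as a short SOX site, ACAANG. Both strands were searched in the 300 bases around RefSeq gene starts (250 before, 50 after, GRCh38.p14). These windows were given for 7 of the 9 genes (not *SOX9* or *SOX11*), 11 in all. The AP-1 letters were in 1 of the 11 windows, at *SOX6*, and in 7.71% of all 35116 windows. The match at *SOX6* reads TGATTCA, with T and not C or G in the middle, and the share over all windows includes such looser matches. The CRE letters were in none of the 11 and in 1.85% of all windows. The SOX letters were in the window of *SOX2*, in that of *SOX5* and, of the *SOX6* windows, only in those starting at 16402814 and 16356497. They were in 35.5% of all windows, a share per window and not per gene. Matched letters are a description and not a bound site. The 250 bases before the start of *SOX2*, *SOX3* and *SOX6* are shown because *SOX2* and *SOX3* are the pair compared within libraries and *SOX6* holds the AP-1 match. They read 5′ to 3′ on the strand of the gene, with matched letters in capitals (the SOX letters in *SOX2*, the AP-1 letters in *SOX6*, none in *SOX3*). They lie at chr3:181711675-181711924 (plus strand), chrX:140505070-140505319 (minus strand) and chr11:16738478-16738727 (minus strand).
SOX2: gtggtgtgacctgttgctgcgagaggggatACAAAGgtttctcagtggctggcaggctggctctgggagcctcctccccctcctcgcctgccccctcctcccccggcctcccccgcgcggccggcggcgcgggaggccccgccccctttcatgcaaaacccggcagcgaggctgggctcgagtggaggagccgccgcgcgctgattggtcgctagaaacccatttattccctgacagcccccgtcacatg
SOX3: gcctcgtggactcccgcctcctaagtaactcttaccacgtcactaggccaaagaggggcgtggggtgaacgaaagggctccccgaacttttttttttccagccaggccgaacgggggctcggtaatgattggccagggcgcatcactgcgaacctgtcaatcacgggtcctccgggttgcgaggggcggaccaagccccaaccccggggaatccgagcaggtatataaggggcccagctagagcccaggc
SOX6: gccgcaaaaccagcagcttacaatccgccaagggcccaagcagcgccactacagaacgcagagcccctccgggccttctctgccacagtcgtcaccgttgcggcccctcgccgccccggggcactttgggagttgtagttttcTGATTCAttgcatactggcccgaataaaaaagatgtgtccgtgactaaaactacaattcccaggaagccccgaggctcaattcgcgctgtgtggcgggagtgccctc

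*SOX21*, the B2 repressor, fell from day 12 to day 24 in KO. On day 12 its scores were 65 and 70 for WT, 83 and 76 for KO#2, and 83 and 64 for KO#10. On day 24 they were 17 and 3 for WT, 21 and 11 for KO#2, and 2 and 11 for KO#10. Every library of day 24 was below every library of day 12, and WT and KO overlapped on both days. The log2 change from day 12 to day 24 was -2.96 in KO (SE 0.49, adjusted *p* = 0.00179). In WT it was -3.01 (SE 0.77, adjusted *p* = 0.0702), of nearly the same size but not past the threshold, which it passed with centred libraries (adjusted *p* = 0.0131) and with all 12 libraries in 1 fit (adjusted *p* = 0.0124). The RNA listed as *SOX21-AS1* had mean scores on day 12 of 10.5 ± 6.36 (WT, SD, n = 2) and 11.8 ± 2.22 (KO, SD, n = 4), and on day 24 of 2.50 ± 2.12 and 3.00 ± 1.63.

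The SOXC genes had overlapping scores in WT and KO on day 12 and were above both WT libraries in at least 3 of the 4 KO libraries on day 24. *SOX11* had scores of 88 and 77 for WT, 101 and 79 for KO#2, and 93 and 73 for KO#10 on day 12. On day 24 they were 38 and 27 for WT, 78 and 96 for KO#2, and 32 and 82 for KO#10. KO#10 replicate 1 lay between the WT libraries and the other 3 KO libraries stayed close to the level of day 12. The log2 difference on day 24 was 1.03 (SE 0.43, adjusted *p* = 0.124), and it was 1.38 without KO#10 replicate 1 (adjusted *p* = 0.00697). *SOX4* scored 67 and 47 for WT, 65 and 46 for KO#2, and 66 and 44 for KO#10 on day 12, with replicate 2 lower in all 3 lines. On day 24 it scored 39 and 34 for WT, 69 and 66 for KO#2, and 38 and 56 for KO#10, a log2 difference of 0.60 (SE 0.25, adjusted *p* = 0.123). The lowest KO library was again KO#10 replicate 1, inside the WT range. *SOX12* scored 24 and 27 for WT, 22 and 25 for KO#2, and 28 and 26 for KO#10 on day 12. On day 24 it scored 21 and 19 for WT, 31 and 35 for KO#2, and 27 and 32 for KO#10, without overlap between KO and WT. Its log2 difference of 0.61 (SE 0.14, adjusted *p* = 0.0374) was past the *p* threshold but under 2-fold, so it was not called.

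Of the SOXD genes, *SOX5* fell with day in both genotypes and *SOX6* scored slightly higher in KO on each day. *SOX5* had scores of 146 and 116 for WT, 206 and 149 for KO#2, and 106 and 66 for KO#10 on day 12. Both KO#2 libraries were above both WT libraries and both KO#10 libraries below them, and the mean log2 difference between the clones was 1.06, which was not tested. On day 24 *SOX5* scored 30 and 17 for WT, 62 and 55 for KO#2, and 29 and 63 for KO#10. The clones no longer lay on opposite sides of WT, and KO#10 replicate 1 was the KO library inside the WT range. The log2 difference between KO and WT was -0.10 on day 12 (SE 0.39, adjusted *p* = 0.956) and 1.11 on day 24 (SE 0.36, adjusted *p* = 0.0730). Without KO#10 replicate 1 the latter was 1.37 (adjusted *p* = 0.0130). *SOX6* scored 11 and 12 for WT, 14 and 18 for KO#2, and 17 and 14 for KO#10 on day 12. On day 24 it scored 14 and 14 for WT, 24 and 19 for KO#2, and 18 and 22 for KO#10. Every KO library was above both WT libraries on each day, by a small margin. The log2 difference was 0.42 on day 12 (SE 0.16, adjusted *p* = 0.398), 0.53 on day 24 (SE 0.15, adjusted *p* = 0.0592) and 0.47 over both days (SE 0.11, adjusted *p* = 0.0163), under 2-fold in each.

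*SOX9* was higher in KO than in WT on each day without overlap. Its scores were 14 and 15 for WT, 27 and 23 for KO#2, and 25 and 20 for KO#10 on day 12. On day 24 they were 11 and 10 for WT, 29 and 49 for KO#2, and 13 and 49 for KO#10. KO#10 replicate 1 was nearest to WT. The log2 difference was 0.67 on day 12 (SE 0.15, adjusted *p* = 0.166) and 1.48 on day 24 (SE 0.50, adjusted *p* = 0.0815). It was 1.07 over both days (SE 0.28, adjusted *p* = 0.0234), and *SOX9* was called higher. The call was lost, with estimates under 2-fold, without KO#2 replicate 2 or KO#10 replicate 2 of day 24 (log2 difference 0.97 in each) and with a pseudocount of 5 (0.90). It was also lost without either WT library of day 12 (adjusted *p* = 0.0761 and 0.0606) or WT replicate 2 of day 24 (adjusted *p* = 0.103). Without KO#10 replicate 1 the difference on day 24 was 1.88 (adjusted *p* = 0.00727). *SOX9-AS1*, annotated on the opposite strand and overlapping *SOX9*, had scores of 3 to 12 in all libraries, and whether the strand was used in counting is not given.

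**Figure D2:**
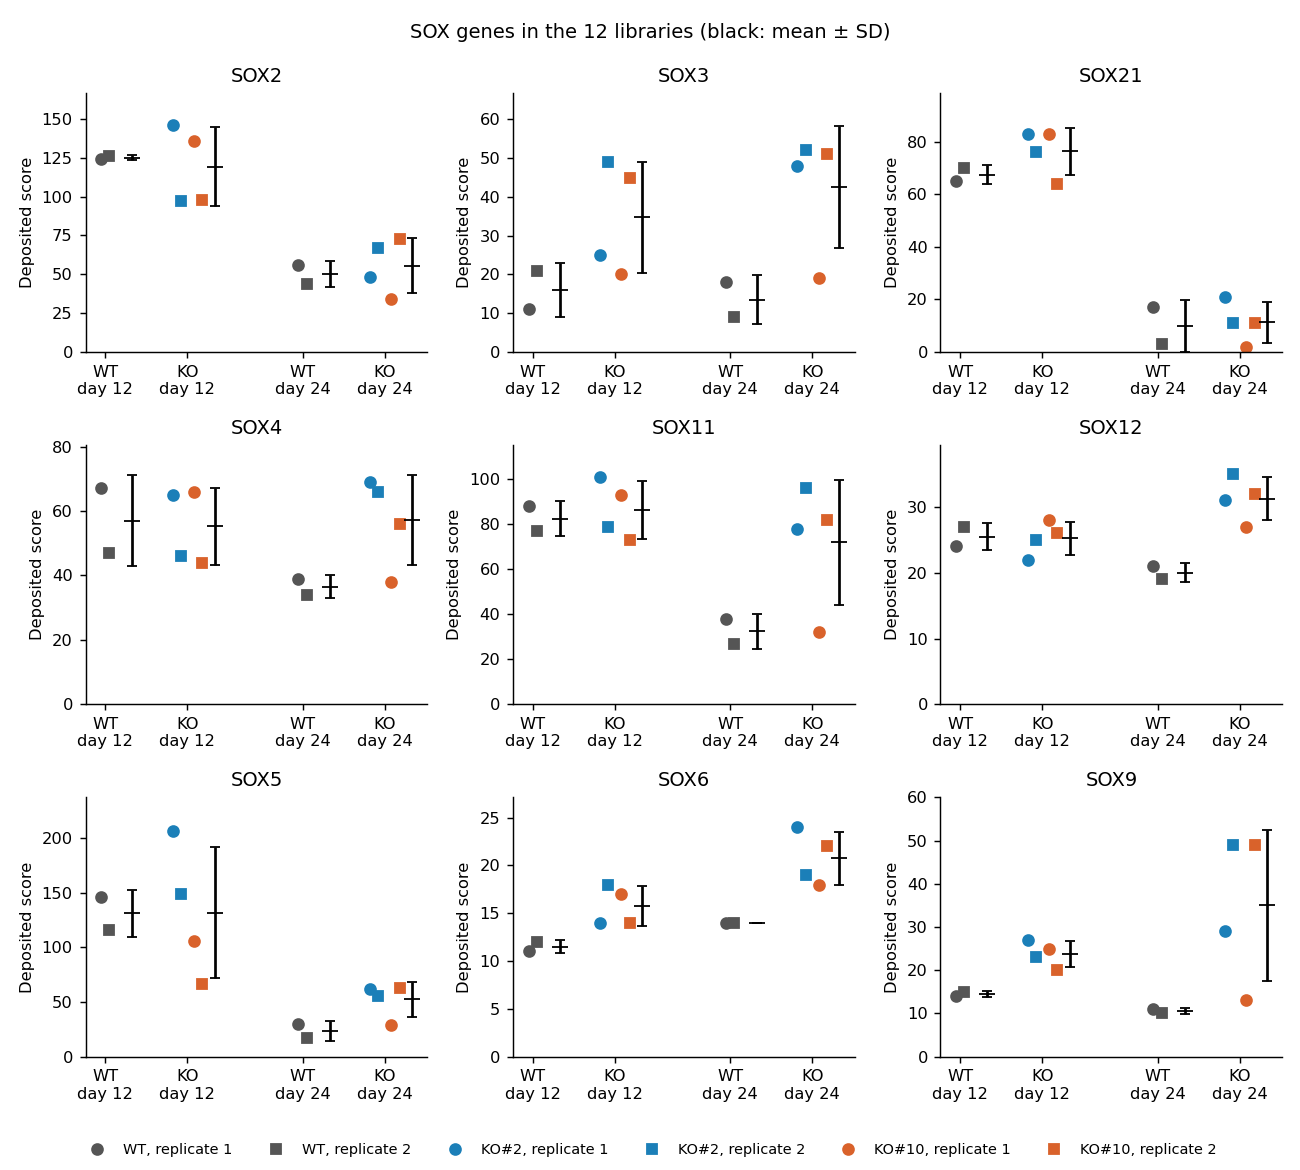
Deposited scores of the 9 SOX genes, 1 panel per gene with its own vertical axis from 0, in WT and KO on day 12 and day 24. Points are libraries coloured by line and shaped by replicate number, and black marks give the mean and SD of a group. *SOX2*, *SOX21* and *SOX5* are lower on day 24 than on day 12, and *SOX9* and *SOX6* have every KO library above both WT libraries of the same day.

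On day 24 none of the 9 SOX genes was called between KO and WT. All 9 estimates were above 0, as were those of 50.4% of all genes, with a median log2 difference of 0.61 against 0.0063 over the 9289 genes tested. By limma, 7 of the 9 had an unadjusted *p* under 0.05, all higher in KO, where 20.2% of all genes did so in that direction. The adjusted threshold with 2-fold was passed upwards by 4.22% of all genes. In 4 of the 9 (*SOX3*, *SOX12*, *SOX9* and *SOX6*) every KO library was above both WT libraries, as in 22.2% of all genes tested. Without KO#10 replicate 1, *SOX3*, *SOX11*, *SOX5* and *SOX9* were called higher, 4 of 9 against 7.86% of all genes. It was the lowest KO library in each of these 4, so leaving it out had to raise their differences. With all 12 libraries in 1 fit, *SOX3*, *SOX11* and *SOX9* were called higher, 3 of 9 against 5.92% of all genes. Any other single library left out gave 0 calls. In bulk RNA, fewer cells expressing a gene and less RNA per cell cannot be told apart.

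On day 12 none of the 9 was called, as in nearly all genes, of which 0.0225% passed upwards. Unadjusted *p*-values of limma were under 0.05 for *SOX3*, *SOX6* and *SOX9*, all higher in KO, and for 980 of all 8885 genes tested in either direction. The median log2 difference of the 9 was 0.059. In *SOX9* and *SOX6* every KO library was above both WT libraries, which held for 8.23% of all genes. With the replicate block *SOX3* was called, 1 of 9 against 0.405% of all genes. Over both days *SOX3* and *SOX9* were called higher, 2 of 9 against 1.85% of all genes, and the median log2 difference was 0.47 against 0.0039 over all genes. *SOX3*, *SOX6* and *SOX9* had WT below every KO library in each of 3 sets, which were replicate 1 of day 12, replicate 2 of day 12, and day 24. This held for 3 of 9 and for 6.10% of all genes. *SOX1*, which scored 10 or more in KO libraries only, also had this order. No SOX gene measured had the opposite order in all 3 sets, which is not read as a trait of SOX genes because the share of all genes with that order is not given here.

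**Figure D3:**
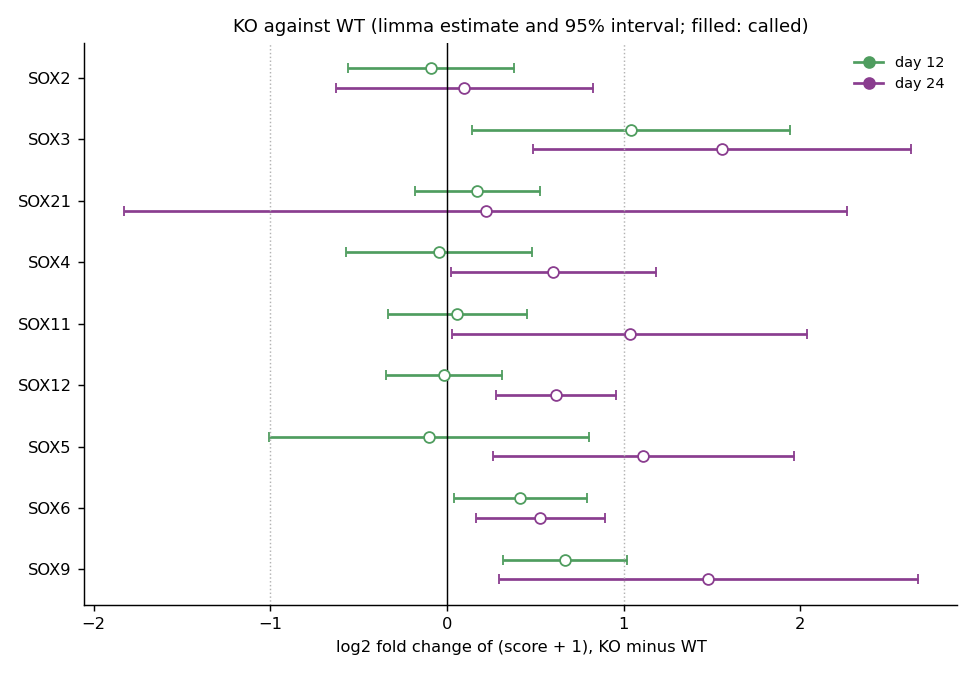
Log2 difference of KO minus WT for the 9 SOX genes on day 12 and day 24, with 95% intervals from limma. Dotted lines mark 2-fold, and no symbol is filled because none of the 9 was called on a single day. The estimates for *SOX3* and *SOX9* are the farthest above 0 on each day, at 1.04 and 0.67 on day 12 and 1.56 and 1.48 on day 24.

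Between day 12 and day 24, *SOX2* and *SOX5* fell in both genotypes, *SOX21* was called in KO and *SOX11* in WT. In KO, the log2 change was -1.13 for *SOX2* (SE 0.24, adjusted *p* = 0.00640), -1.26 for *SOX5* (SE 0.35, adjusted *p* = 0.0188) and -2.96 for *SOX21*, 3 of 9 called lower against 5.45% of all genes. In WT it was -1.31 for *SOX2* (SE 0.18, adjusted *p* = 0.0319), -2.47 for *SOX5* (SE 0.32, adjusted *p* = 0.0319) and -1.33 for *SOX11* (SE 0.22, adjusted *p* = 0.0391), 3 of 9 against 6.01%. None was called higher on day 24 in either genotype. In KO, *SOX2* was under 2-fold without KO#10 replicate 1 of day 24 (log2 change -0.91), and *SOX5* missed the threshold without KO#2 replicate 1 of day 12 (adjusted *p* = 0.0504). In WT, with 2 libraries a day, leaving out any single library left 0 called genes in the whole table, and without a filter on low scores the 3 SOX genes had adjusted *p*-values of 0.0506 to 0.0592.

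The changes with day had all 9 interaction estimates above 0, as in 51.6% of all genes, where a value above 0 is a smaller fall or a larger rise in KO than in WT. That of *SOX21* was 0.047 (SE 0.93) and changed sign with a pseudocount of 5 and when certain single libraries were left out. None was called by limma, against 1.31% of all genes in either direction, and *SOX12* alone had an unadjusted *p* under 0.05 (log2 difference of the 2 effects 0.63, SE 0.20, adjusted *p* = 0.111). Over all genes, 2136 of 9952 had an unadjusted *p* of limma under 0.05 in either direction, so *SOX12* does not stand out. *SOX5* had the largest estimate, 1.21 (SE 0.58, adjusted *p* = 0.252), and *SOX11* one of 0.98 (SE 0.48, adjusted *p* = 0.267). Without KO#10 replicate 1 of day 24, *SOX11* (1.32, adjusted *p* = 0.00852) and *SOX9* (1.21, adjusted *p* = 0.0237) were called, 2 of 9 against 4.23% of all genes called upwards.

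**Figure D4:**
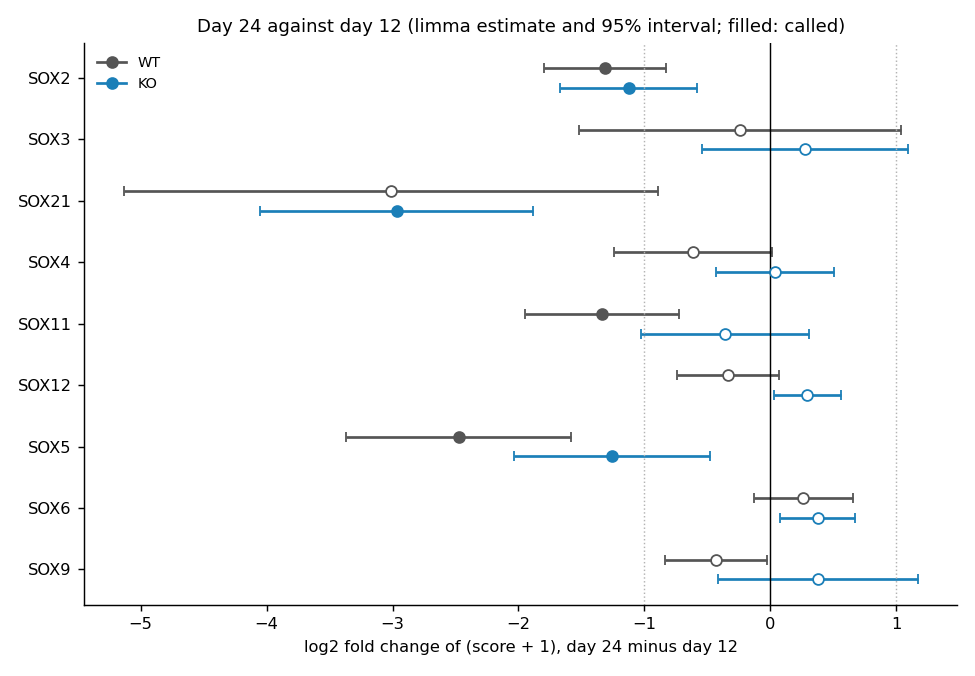
Log2 change from day 12 to day 24 for the 9 SOX genes in WT and in KO, with 95% intervals from limma. Filled symbols are called genes and dotted lines mark 2-fold. *SOX21* has the lowest estimates (-3.01 in WT and -2.96 in KO), and *SOX11* has -1.33 in WT and -0.36 in KO.

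Of 3 other SOX genes in the files, *SOX1* alone was called between KO and WT on day 24, having entered the test through KO libraries only. *SOX13* (group D) was called lower on day 24 than on day 12 in KO (log2 change -1.02, SE 0.18, adjusted *p* = 0.00225), with scores of 28 to 35 on day 12 and 12 to 21 on day 24. *SOX10*, a SOXE gene of neural crest and oligodendrocytes, scored 2 to 17 and was not called between KO and WT on day 24 (log2 difference -0.0057, SE 0.62, adjusted *p* = 0.996). Of 9 partner factors listed, 7 were tested between KO and WT on day 24, with *PAX6* and *TCF4* (log2 difference 1.06, SE 0.14, adjusted *p* = 0.0184) called higher and *POU5F1* lower (3.79% of all genes were called lower). The calls of *PAX6* and *TCF4* were lost without either WT library or replicate 2 of either KO line, and that of *POU5F1* without KO#2 replicate 2, while without a WT library *POU5F1* did not pass the filter on low scores. *PAX6*, which acts with *SOX2* in the developing eye and is in the progenitor list below as well, scored 40 and 34 for WT, 106 and 82 for KO#2, and 73 and 74 for KO#10 on that day (log2 difference 1.15, SE 0.18, adjusted *p* = 0.0206). *POU5F1*, the partner of *SOX2* in pluripotent cells, scored 75 and 236 for WT, 6 and 4 for KO#2, and 3 and 5 for KO#10 (log2 difference -4.64, SE 0.44, adjusted *p* = 0.00898). *POU5F1* was already lower in KO on day 12, at 16 to 19 against 107 and 136 in WT (adjusted *p* = 0.000602), where the *SOX2* scores of WT and KO overlapped.

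Cell type markers moved with the same comparison on day 24, where 4.22% of all genes were called higher and 3.79% lower. Of the neural progenitor markers tested, 3 of 13 were called higher in KO and none lower (median log2 difference 1.11), among them *CDH2* (2.38, SE 0.34, adjusted *p* = 0.0196) and *MSI1* (1.39, SE 0.26, adjusted *p* = 0.0245). The estimates of *FABP7* (-0.56) and *PROM1* (-0.24) were below 0. *TNC* (7 and 8 in WT, 1 to 3 in KO) and *HOPX* (5 and 7 in WT, 0 to 1 in KO) did not pass the filter on low scores. Over both days, 1 of 14 progenitor markers was called higher and 1 lower, where 184 of all 9952 genes were called higher and 206 lower. For the neuron markers on day 24, 5 of 12 were called higher (median 1.89), with *MAP2* at 3.60 (SE 0.94, adjusted *p* = 0.0471) and *NCAM1* at 2.06 (SE 0.47, adjusted *p* = 0.0353). All 8 tested pluripotency markers were called lower (median -3.58), with *TDGF1* at -5.64 (SE 0.69, adjusted *p* = 0.0181). On that day *POU5F1*, *TDGF1*, *L1TD1* and *ZFP42* scored 10 or more in WT libraries only. Among the neuron markers called, *ELAVL4* did so in KO libraries only. These genes entered the test through the group where they were high, and their calls are no independent support. Without either WT library or replicate 2 of either KO line, the progenitor and neuron markers had 0 calls and the pluripotency markers 0 to 2, with 4 of these tested where a WT library was left out. Without KO#10 replicate 1, 8 of 13 progenitor and 10 of 12 neuron markers were called higher, against 7.86% of all genes. Of 3 endoderm markers, *EPCAM* was called lower (-4.44, SE 0.61, adjusted *p* = 0.0189), *APOA1* was at -4.77 (SE 1.31, adjusted *p* = 0.0517) and *CXCR4* at 1.26 (SE 0.36, adjusted *p* = 0.0574), with every KO library above both WT libraries. *FABP7*, *PROM1*, *TNC*, *HOPX*, *L1TD1*, *ZFP42*, *ELAVL4*, *APOA1* and *CXCR4* were named after their values were seen. *CXCR4*, a chemokine receptor, was called higher over both days (1.05, SE 0.24, adjusted *p* = 0.0138). The only endothelial marker present, *KDR*, was called lower (-3.01, SE 0.69, adjusted *p* = 0.0357). The calls of *EPCAM* and *KDR* were lost without replicate 2 of either KO line, that of *KDR* also without KO#2 replicate 1, and neither gene passed the filter on low scores without a WT library. Both genes entered the test on day 24 through WT libraries only. None of 4 neural crest and cartilage markers was called by limma. Without KO#10 replicate 1, 3 of the 4 were called lower, where 624 of all 9180 genes tested were. In that list *COL2A1*, a target of *SOX9* in cartilage, had a difference of 1.05 (SE 0.34, adjusted *p* = 0.0729) and *COL1A1* one of -1.15 (SE 0.60, adjusted *p* = 0.198). The median log2 difference of the 4 was -1.11, and *COL2A1* alone was above 0. The summed neural crest and cartilage scores were 113 to 121 in WT and 66 to 173 in KO, and those of the 3 endoderm markers 219 to 254 in WT and 34 to 112 in KO. In both lists KO#10 replicate 1 was the highest KO library. The part of these cell types in the SOX values was not tested.

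For each SOX gene the 3 genes with the most similar profile over the 12 libraries were found. Likeness was the mean absolute difference between centred log2 profiles among 4891 genes that varied at least 2-fold, and it carries no test because libraries of a day and a line are shared by all genes. Nearest to *SOX2* were *ATP11A* (0.13), *PDE7A* (0.13) and *NUP210* (0.17), and nearest to *SOX3* were *CTNND2* (0.20), *DPYSL5* (0.27) and *CELF2* (0.27). *CTNND2*, a neuronal catenin, scored 6 and 10 for WT, 12 and 24 for KO#2, and 12 and 21 for KO#10 on day 12, and 10 and 5, 30 and 29, and 22 and 26 on day 24. It had the lower replicate 1 of day 12 that *SOX3* showed, but KO#10 replicate 1 of day 24 stood with the KO libraries. *SOX21* was nearest to *ME3* (0.37), *PTPRZ1* (0.43) and *BLACAT1* (0.47). *PTPRZ1*, a receptor phosphatase of neural progenitors and glia, scored 821 to 1009 on day 12, and on day 24 it scored 172 and 48 for WT, 395 and 370 for KO#2, and 28 and 370 for KO#10.

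*SOX11* had the nearest neighbour of all, *FAM131B* (0.085), followed by *B3GAT1* (0.12), which makes the HNK-1 sugar of neural cells, and *INTU* (0.14). *FAM131B* scored 11 and 5 for WT, 18 and 24 for KO#2, and 7 and 20 for KO#10 on day 24, which put the 6 libraries in the same order as *SOX11*. *SOX4* was nearest to *PUM2* (0.10), *ZFTA* (0.10) and *ZFP30* (0.12), and *SOX12* to *CAMSAP2* (0.087), *LRP12* (0.095) and *USP3* (0.097). *SOX5* was nearest to *LINC00887* (0.29), *CCDC57* (0.29) and *CCDC136* (0.31), at larger distances than the other SOX genes except *SOX21*. *SOX6* was nearest to *LANCL1* (0.11), and *NCS1* (0.12) was also among its 3 nearest. *SOX9* was nearest to *DCHS1* (0.20), *MSI1* (0.21) and *PYGO1* (0.21), and *MSI1* is the progenitor RNA-binding protein called higher in KO above.

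In the coordinates of the files, which are compatible with GRCh38, *SOX2* (ENSG00000181449) lies on chromosome 3 from 181711925 to 181714436 and *SOX3* (ENSG00000134595) on chromosome X from 140502985 to 140505069. *SOX9* (ENSG00000125398) lies on chromosome 17 from 72121020 to 72126416. *SOX6* (ENSG00000110693) spans 15966449 to 16739591 on chromosome 11 and *SOX5* (ENSG00000134532) spans 23529504 to 24562544 on chromosome 12. *SOX21* (ENSG00000125285) lies on chromosome 13 from 94709622 to 94712545. Of the SOXC genes, *SOX4* (ENSG00000124766) lies on chromosome 6 from 21593751 to 21598619, *SOX11* (ENSG00000176887) on chromosome 2 from 5692384 to 5701385 and *SOX12* (ENSG00000177732) on chromosome 20 from 325552 to 330224. In GENCODE 29 the SOXB and SOXC genes have a single exon and *SOX9* has 3, while *SOX6* has 15 or 16 and *SOX5* 5 to 17 exons in its transcripts. *SOX2* overlaps *SOX2-OT* on the same strand, and *SOX11* and *SOX6* also overlap noncoding or pseudogene entries on their own strand, so that reads could be split in ways the scores do not show. *SOX4*, *SOX12*, *SOX5*, *SOX6* and *SOX9* overlap genes on the opposite strand, and their values carry that uncertainty.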

How the data were processed

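The authors deposited whole-number scores per gene for 10976 genes in each of 12 libraries, already normalized, so that column totals (473637 to 483149) are not depths and no counting interval can be given. The submitters' processing notes name bcl2fastq, Bowtie2, RSEM and the build mm10, although all 10976 identifiers are in the human GENCODE 29. The normalization, annotation and use of strand are not given in the sources used here. Every library had the same median (17) and highest score (5585) and 269 to 271 distinct scores, so the libraries shared nearly 1 distribution. A median difference near 0 over all genes is therefore not a finding. Groups and replicate numbers came from the sample labels. Tests covered the genes that scored 10 or more in 2 or more of the libraries compared, on log2(score + 1) with limma 3.58.1 (lmFit, eBayes with trend) in R 4.3.3, with Benjamini-Hochberg adjustment over all tested genes, and a call needed an adjusted *p* below 0.05 together with a 2-fold difference. The test was checked on simulated data. Same-numbered libraries deviated together across genes on day 12 (r = 0.393 for WT and KO#2, 0.376 for WT and KO#10, 0.556 for the clones), but not all on day 24 (0.218, -0.0944, 0.328). In the 3 sets used for the order of WT and KO, replicate numbers were therefore taken as pairs on day 12 only. No main fit used the pairing, that of day 12 included. The replicate block, with replicate number as a term of the fit, was an alternative on both days. Replicates correlated with r between 0.902 and 0.953 across genes, and none was a copy. The genes named are the SOX genes, *JUN*, for each list the called genes of largest change on day 24 or else those of highest mean, and the 3 nearest profiles of each SOX gene. Some genes that this rule takes are not reported here. The SOX genes and lists were chosen with earlier results of these data known. Alternatives were other filters, pseudocounts, call rules and fits, and each library left out. Tables used Python 3.11.15, pandas 2.3.3 and matplotlib 3.10.9.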

Additional observations from a re-analysis of the deposited data

Results flagged for a closer look

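*SOX3* on day 24 had 1 KO library far from the other 3 (KO#10 replicate 1, at 19 against 48, 51 and 52), with a gap of 0.879 of the group's range. *SOX1* had the same library apart on the same day (6 against 11, 12 and 12), with a gap of 0.833 of the range. Chance gives such a gap in about 1 of 20 groups of this size, and the KO groups of the 9 SOX genes and 3 others were searched on both days. The same library was lowest in both flagged genes, which is no independent support because all genes share the libraries. *SOX5* on day 12 had both KO#2 libraries above and both KO#10 libraries below WT, a mean log2 difference of 1.06 between the clones, and that difference was not tested.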

How the results depend on the processing

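Of the 985 SOX results recomputed under the other settings, 907 kept their direction and side of the threshold, 18 passed the threshold newly, 25 no longer passed and 35 changed sign. The sign changes concerned estimates that were not called. Of these, 2 came from another fit: *SOX2* over both days was -0.00162 with centred libraries, and the interaction of *SOX21* was -0.016 with a pseudocount of 5. The others came from single libraries left out, with ranges on day 24 of -0.073 to 0.31 (*SOX2*) and -0.87 to 1.30 (*SOX21*), on day 12 of -0.036 to 0.15 (*SOX11*), -0.098 to 0.065 (*SOX12*), -0.30 to 0.20 (*SOX4*) and -0.36 to 0.19 (*SOX5*), and over both days of -0.082 to 0.11 (*SOX2*) and -0.35 to 0.74 (*SOX21*). The ranges were -1.04 to 1.13 for the interaction of *SOX21*, -0.70 to 0.23 for the day change of *SOX3* in WT and -0.061 to 0.22 for that of *SOX4* in KO.

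All genes called between KO and WT on day 24 numbered 744, and 476 with a score filter of 20, 1117 with all 12 libraries, and 2 to 1346 with single libraries left out, each of the 6 moving it by over 1.5 times (1346 without KO#10 replicate 1, 263 without KO#2 replicate 1, and 2 to 23 without any of the others). SOX genes called on day 24 numbered 0, and 4 by unadjusted *p*, 3 with all 12 libraries and 0 to 4 with libraries left out. On day 12 all genes called numbered 8, and 145 by unadjusted *p*, 71 with the replicate block, 1 with clones as separate groups, 16 without the trend and 1 to 4 with libraries left out. SOX genes called on day 12 numbered 0, and 1 by unadjusted *p* or with the replicate block. Over both days 390 genes were called, and 240 with a filter of 20, 212 with a pseudocount of 5 and 144 to 563 with libraries left out, and SOX genes numbered 2, and 1 with a pseudocount of 5 and 0 to 2 with libraries left out. For the day change in KO, 1057 genes were called, 673 with a pseudocount of 5, and 3 SOX genes, 2 to 3 with libraries left out. In WT, 1025 genes were called, 447 without a filter and 0 without any 1 library, and 3 SOX genes, 0 in both cases and 4 by unadjusted *p*, with centred libraries or with all 12 libraries (*SOX21* gained). The interaction had 130 calls, and 83 with a filter of 20, 964 by unadjusted *p*, 368 with the replicate block and 11 to 916 with libraries left out, and 0 SOX genes, 0 to 2 with libraries left out. The cause of these moves was not tested. The replicate block changed no call of another SOX gene and could not be fitted for the day change in WT, which has no residual degrees of freedom left. Where 1 WT library remained, it was assumed to vary like the other groups. Depth is unknown and sets no stated limit.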
